A study of Mus musculus with 15 samples.

Results

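Cd48 and the SLAM receptor family were followed through RNA-seq libraries of erythro-myeloid progenitors (EMPs) from the E10.5 mouse yolk sac (YS). Cd48 was selected on its fall in Tie2-Ezh2-KO EMPs against WT EMPs, so its values in that comparison are given as a description with no test. The other 9 genes, Slamf1, Cd244, Ly9, Cd84, Slamf6, Slamf7, Slamf8, Slamf9 and Cd2, were chosen by family and not by value. All 10 genes were present among the 17454 genes of the table. The question was whether Cd48 fell alone or with its relatives.

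SLAM receptors are surface proteins of blood cells, and most of them bind a copy of themselves on a neighbouring cell. CD48 differs in that it is tethered to the membrane by a glycosylphosphatidylinositol (GPI) anchor, has no tail inside the cell, and is the ligand of CD244 and, more weakly, of CD2. In adult bone marrow, CD48, CD244 and SLAMF1 on the cell surface are used to tell hematopoietic stem cells from more restricted progenitors.

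The study asked what the loss of Ezh2, the catalytic subunit of the Polycomb repressive complex that methylates histone H3, did to EMPs when it was deleted in endothelium or later in blood cells. EMPs were sorted from single YS as lineage-negative cells that carried KIT, CD41 and the receptors CD16/32. All animals were C57BL/6 embryos at E10.5 and carried floxed Ezh2 on both alleles (Ezh2fl/fl). Tie2-Ezh2-KO EMPs (5 libraries) also carried a Tie2-Cre transgene (Tg/+), which acts in endothelium and in the blood cells that arise from it. Vav-Ezh2-KO EMPs (5 libraries) carried a Vav-Cre transgene (Tg/+), named Vav-iCre in the study, which acts in blood cells from the time they emerge. The corresponding embryos without Cre were Tie2-Ezh2-WT (3 libraries) and Vav-Ezh2-WT (2 libraries), here pooled as 5 WT libraries. Both knockouts were compared with these same 5 libraries, so the 2 comparisons share their controls.

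The labels give 500 cells per library, while the methods of the study give another number, and 16 cycles of PCR before sequencing. Levels are in RPKM, the reads of a gene scaled for the length of its transcript and the depth of its library, so that levels of different genes can be set side by side. The reads on genes ranged from 10407398 in Tie2-Ezh2-WT replicate 4 to 41025074 in Tie2-Ezh2-WT replicate 12. Reads copied by PCR are not independent molecules, so read floors cover counting error only. In the values below, the libraries follow the order Tie2-Ezh2-WT 4, 10 and 12, Vav-Ezh2-WT 4 and 6, Tie2-Ezh2-KO 7, 9, 11, 13 and 17, and Vav-Ezh2-KO 1, 9, 10, 26 and 28.

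The labels were checked against Ezh2 and the sorted markers. Ezh2 was at 36.9, 39.5, 30.1, 42.0 and 41.5 RPKM in WT, at 27.8, 26.2, 24.8, 29.5 and 26.5 RPKM in Tie2-Ezh2-KO, and at 33.7, 42.4, 37.8, 38.1 and 34.0 RPKM in Vav-Ezh2-KO libraries. Every Tie2-Ezh2-KO library thus lay below every WT library, while the Vav-Ezh2-KO libraries overlapped WT, so the level of Ezh2 RNA neither shows nor excludes a deletion in these 5 libraries. The values count reads over the whole gene, and a transcript that lacks the floxed exons would still be counted. Kit (15.2 to 45.8 RPKM), Itga2b, which encodes CD41 (16.7 to 41.7 RPKM), and the genes of the sorted Fc receptors, Fcgr3 (66.9 to 194.3 RPKM) and Fcgr2b (4.68 to 20.9 RPKM), were present in all 15 libraries. None of these 4 marker genes passed the test described below in either knockout, with 2 at an unadjusted p under 0.05 in Tie2-Ezh2-KO and 0 in Vav-Ezh2-KO, and voom gave the same counts. These 2 were the Fc receptor genes Fcgr3 (-0.47 on the log2 scale) and Fcgr2b (-0.65), each below all WT libraries in 4 of 5 Tie2-Ezh2-KO libraries, where 2.75% of all genes were lower at that p.

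Cd48, the ligand, was at 35.3, 49.7, 40.8, 36.7 and 29.3 RPKM in WT, at 15.4, 12.8, 3.84, 8.39 and 14.0 RPKM in Tie2-Ezh2-KO, and at 46.4, 47.7, 35.8, 33.9 and 28.3 RPKM in Vav-Ezh2-KO libraries. All 5 Tie2-Ezh2-KO libraries were below every WT and every Vav-Ezh2-KO library, and replicate 11 was the lowest of them, with 65 reads. Means were 38.4 ± 7.57 RPKM in WT (SD, n = 5), 10.9 ± 4.72 RPKM in Tie2-Ezh2-KO (SD, n = 5) and 38.4 ± 8.39 RPKM in Vav-Ezh2-KO (SD, n = 5), so the Tie2-Ezh2-KO mean was 28.4% of the WT mean. On the scale of log2(RPKM + 0.2) Cd48 fell by 1.93 in Tie2-Ezh2-KO EMPs, the value on which it was selected. In a bulk library, fewer cells that carry a transcript and less of it per cell cannot be told apart.

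**Figure D1:**
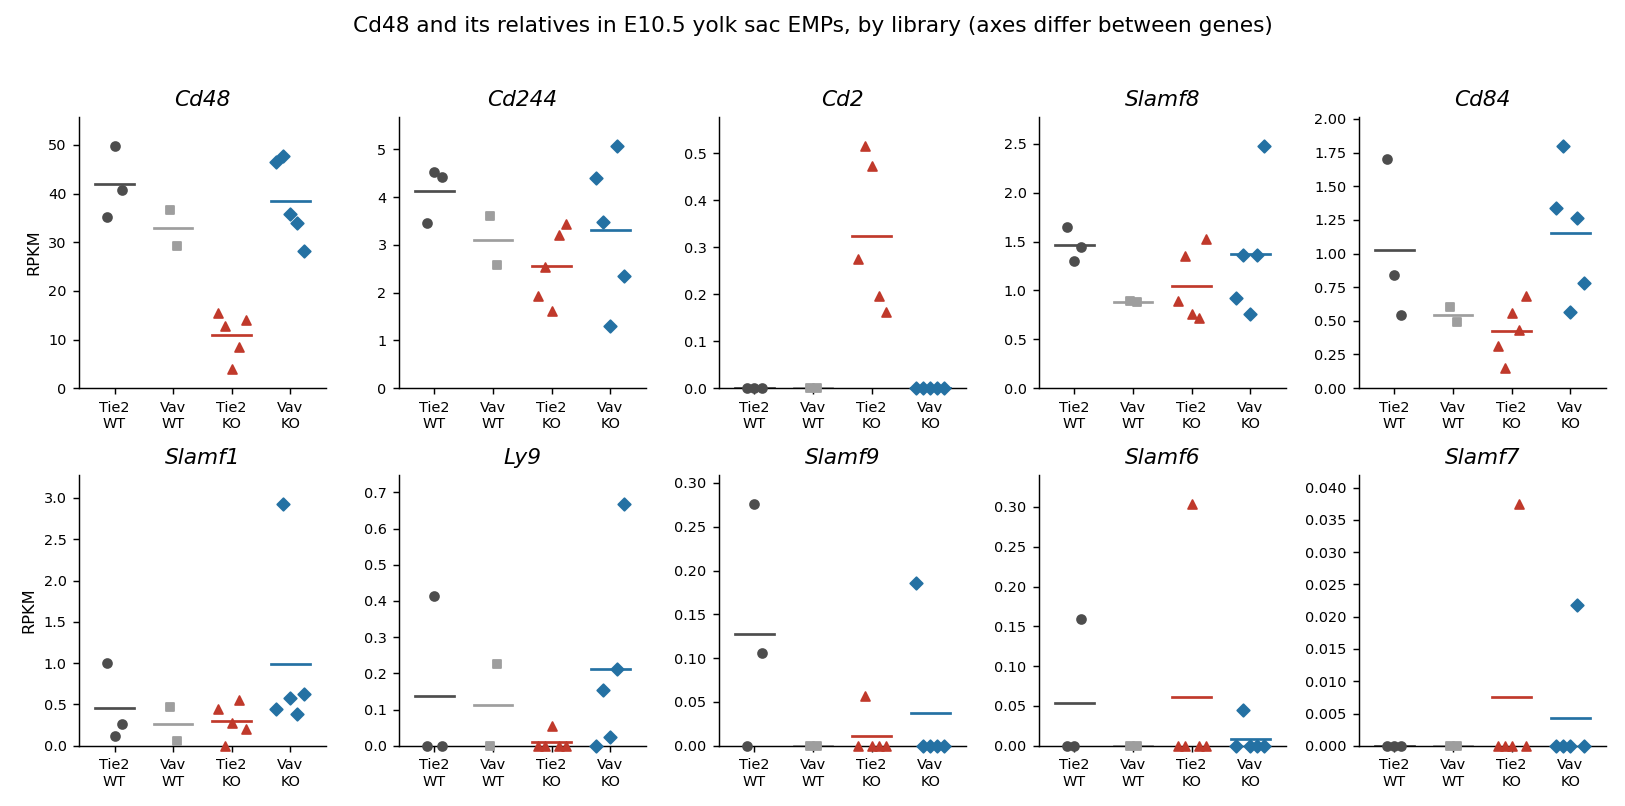
Level of each family member in RPKM (vertical axis, with its own range for each gene) in the 15 libraries, by genotype. Each symbol is 1 library and each bar the mean of a genotype; Cd48 reached 49.7 RPKM, while no relative passed 5.06 RPKM, and Cd2 had reads in Tie2-Ezh2-KO libraries only.

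Cd48 was the most abundant member in every group, followed by its receptor Cd244. In WT EMPs the order of the means was Cd48 (38.4 RPKM), Cd244 (3.72 RPKM), Slamf8 (1.23 RPKM), Cd84 (0.835 RPKM), Slamf1 (0.382 RPKM), Ly9 (0.128 RPKM), Slamf9 (0.0765 RPKM) and Slamf6 (0.0319 RPKM), and Slamf7 and Cd2 were at 0 in all 5 libraries. Cd48 and Cd244 stood apart from the gene below them in all 5 WT libraries, while Slamf8 and Cd84, Cd84 and Slamf1, and the genes after them overlapped in range. The EMP family transcript pool was therefore mostly Cd48, with low levels of Cd244, Slamf8, Cd84 and Slamf1 and few or no reads of the other 5 genes.

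Cd244 encodes the main receptor for CD48. It was at 3.45, 4.53, 4.42, 3.61 and 2.57 RPKM in WT, at 1.94, 2.54, 1.62, 3.20 and 3.44 RPKM in Tie2-Ezh2-KO, and at 4.40, 3.48, 1.29, 5.06 and 2.34 RPKM in Vav-Ezh2-KO libraries. Tie2-Ezh2-KO replicates 7, 9 and 11 lay below all WT libraries and replicates 13 and 17 within their range, and the Vav-Ezh2-KO libraries spread on both sides of WT. Against the 3 Tie2-Ezh2-WT libraries alone all 5 Tie2-Ezh2-KO libraries were lower, replicate 17 only just (3.44 against 3.45 RPKM). The difference was -0.54 (SE 0.26) on the log2 scale, with a 95% interval from -1.09 to 0.02, and did not pass the test across all genes (limma, adjusted p = 0.482). An exact permutation test of Cd244 alone, two-sided and not adjusted for the number of genes, gave p = 0.0397.

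Cd2, the other receptor, is best known from T cells and natural killer (NK) cells. Its level was 0 in all 5 WT and all 5 Vav-Ezh2-KO libraries and 0.274, 0.515, 0.472, 0.196 and 0.163 RPKM in the Tie2-Ezh2-KO libraries, from 5, 9, 8, 6 and 3 reads. These were 31 reads among 88955403 in Tie2-Ezh2-KO, against 0 among 102092929 in WT and 0 among 103738761 in Vav-Ezh2-KO EMPs. Cd2 was thus found in each Tie2-Ezh2-KO library, at a level far under that of Cd48, and in no other library. With WT set to a floor of 3 reads per library, which is 0.158 RPKM on average, the Tie2-Ezh2-KO mean of 0.324 RPKM was at least 2.05-fold higher.

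Cd2 entered the test across all genes only through its Tie2-Ezh2-KO values, so its call (limma, 1.33 on the log2 scale, SE 0.27, adjusted p = 0.0121, higher in 5 of 5 libraries) describes these few reads and is no support for a wider statement. The call ended with quantile normalization (0.0522) and with only the 3 controls of its own line (0.107), in a range of adjusted p from 0.00101 to 0.107. As WT was at 0, its log2 value depended on the constant added to RPKM, and was 0.40 with 1 and 2.79 with 0.05 in place of 0.2.

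The members that bind a copy of themselves were Cd84, Slamf1, Ly9, Slamf6 and Slamf7. Cd84 was at 1.71, 0.839, 0.542, 0.601 and 0.489 RPKM in WT, at 0.311, 0.146, 0.561, 0.429 and 0.686 RPKM in Tie2-Ezh2-KO, and at 1.34, 1.80, 0.569, 1.26 and 0.780 RPKM in Vav-Ezh2-KO libraries. Tie2-Ezh2-KO replicates 7, 9 and 13 were below all WT libraries, and the other 2 overlapped them. The difference was -0.69 (SE 0.35), with an interval from -1.45 to 0.07, and did not pass (limma, adjusted p = 0.548; exact permutation p = 0.0952, not adjusted). It ranged from -0.83 to -0.44 over single libraries left out, with the smallest value without Tie2-Ezh2-WT replicate 4, whose level of Cd84 was far above the other WT libraries, and was -0.34 with 1 added to RPKM.

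Slamf1 was at 1.001, 0.118, 0.263, 0.475 and 0.0559 RPKM in WT, at 0.444, 0, 0.276, 0.555 and 0.208 RPKM in Tie2-Ezh2-KO, and at 0.448, 2.93, 0.574, 0.388 and 0.622 RPKM in Vav-Ezh2-KO libraries. The groups overlapped, with Tie2-Ezh2-WT replicate 4 high among WT and Vav-Ezh2-KO replicate 9 far above all others. Its difference in Tie2-Ezh2-KO EMPs was -0.14 (SE 0.45), from -1.10 to 0.82, and took the other sign with array weights and without Tie2-Ezh2-WT replicate 4 or Tie2-Ezh2-KO replicate 9 (0.086, 0.18 and 0.16).

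Ly9, Slamf6 and Slamf7 had few reads. Ly9 was found in 2 of 5 WT, 1 of 5 Tie2-Ezh2-KO and 4 of 5 Vav-Ezh2-KO libraries, and its highest value was 0.668 RPKM, from 47 reads, in Vav-Ezh2-KO replicate 28. Slamf6 had reads in 1 library of each of the 3 sets, at 0.160, 0.304 and 0.0444 RPKM. Slamf7 had 4 reads in Tie2-Ezh2-KO replicate 13 and 1 read in Vav-Ezh2-KO replicate 26, the lowest total of the family, and did not reach the filter of the test. At this depth no difference could be seen in Slamf6 or Slamf7, and the interval for Ly9 in Tie2-Ezh2-KO EMPs ran from -1.19 to 0.25.

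Slamf8 and Slamf9 encode members with a short tail that lacks the signalling motif of the others. Slamf8 was at 1.65, 1.30, 1.45, 0.889 and 0.884 RPKM in WT, at 0.892, 1.35, 0.761, 0.713 and 1.52 RPKM in Tie2-Ezh2-KO, and at 0.920, 1.36, 0.756, 1.36 and 2.48 RPKM in Vav-Ezh2-KO libraries. The 3 sets overlapped, and the Tie2-Ezh2-WT libraries were above both Vav-Ezh2-WT libraries. The difference in Tie2-Ezh2-KO EMPs was -0.22 (SE 0.29), from -0.84 to 0.41, and did not pass (limma, adjusted p = 0.911). It ranged from -0.34 to -0.12 over single libraries left out, and was -0.46 with only the controls of its own line and -0.13 with 1 added to RPKM. Slamf9 had 10 reads in WT, 1 in Tie2-Ezh2-KO and 6 in Vav-Ezh2-KO libraries in all.

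Of the 9 relatives, 8 reached the filter of the Tie2-Ezh2-KO comparison, which asked for more than 0.2 RPKM in 1 or more of its libraries, and Slamf7 did not. With limma, 0 of these 8 were called lower at an adjusted p under 0.05, against 0.304% of the 14154 genes tested, and 0 were lower at an unadjusted p under 0.05, against 2.75%. By voom on recovered reads, 0 were called lower and 1 was lower at an unadjusted p under 0.05. Cd2 was the 1 relative called higher, where 2.42% of all genes were called higher and 2.73% in either direction, and the 1 relative at an unadjusted p under 0.05 in either direction, against 10.97%. No relative had its 5 Tie2-Ezh2-KO values under the lowest WT value, as 0.714% of genes did, and Cd2 had all 5 above, as 3.29% did. Cd48 was selected in this comparison, so nothing is read from these shares.

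Of the 8 relatives tested, 6 had a difference below 0 and 2, Cd2 and Slamf6, above 0. Their median was -0.26, also with Cd2 at its floor, and that of all genes tested was 0.01. In this comparison Ly9 and Slamf9 reached the filter only through WT libraries, and Slamf6 and Cd2 only through Tie2-Ezh2-KO libraries. The signs of these genes follow from the side that let them in, so nothing is read from the tally or the median. Under quantile normalization and under scaling to a common median each of the 8 kept its sign, while Slamf1 and Slamf6 turned under other alternatives. The intervals of Cd244 and Cd84 reached to -1.09 and -1.45, so a fall of these genes within those bounds could not be told from none with 5 against 5 libraries.

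The relatives summed to 7.81, 7.48, 6.93, 5.57 and 4.23 RPKM in WT, to 3.86, 4.61, 4.05, 5.13 and 6.02 RPKM in Tie2-Ezh2-KO, and to 7.29, 9.76, 3.22, 8.32 and 6.89 RPKM in Vav-Ezh2-KO libraries. These sums overlapped between all sets, with means of 6.40 ± 1.49 RPKM (SD, n = 5), 4.73 ± 0.876 RPKM (SD, n = 5) and 7.10 ± 2.44 RPKM (SD, n = 5). Tie2-Ezh2-KO overlapped WT only through the 2 Vav-Ezh2-WT libraries. All 5 Tie2-Ezh2-KO sums were below the 3 sums of Tie2-Ezh2-WT (7.41 ± 0.441 RPKM, SD, n = 3), the controls of its own line. The sums were not tested. Cd48 made up 81.9% to 87.4% of the family's summed RPKM in WT, 48.7% to 80.0% in Tie2-Ezh2-KO and 80.3% to 91.8% in Vav-Ezh2-KO libraries. It remained the most abundant member in each Tie2-Ezh2-KO library, also in replicate 11, where it had its lowest share.

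The comparison of Vav-Ezh2-KO with WT was not used to choose Cd48. Here Cd48 differed by -0.00 (SE 0.16) on the log2 scale, with a 95% interval from -0.34 to 0.34, an adjusted p of 0.995 by limma and an exact permutation p of 1. The Vav-Ezh2-KO values lay within the range of WT, apart from replicate 28 just below it. The interval does not reach -1.93, the Tie2-Ezh2-KO value on which Cd48 was selected. Both comparisons share their WT libraries, so no difference between the knockouts is read from this. The sign of so small a value had no meaning, and it was 0.038 under quantile normalization and 0.040 with scaling to a common median.

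The filter kept 7 of the 10 members in this comparison, since Slamf6, Slamf7 and Cd2 did not reach it. With limma 0 of the 7 were called, and 0 had an unadjusted p under 0.05, while 0.00733% of the 13646 genes tested were called and 7.93% had an unadjusted p under 0.05. By voom 0 were called and 1 had an unadjusted p under 0.05. The largest difference was that of Slamf1, at 0.93 (SE 0.49, from -0.13 to 1.98, limma adjusted p = 0.668), which was above all WT libraries in replicate 9 alone and was 0.50 without that library. Cd244 (-0.26, SE 0.31) and Cd84 (0.41, SE 0.34) also differed by less than the spread between libraries allowed to be called.

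Whether the knockouts differed was tested over all 15 libraries, with each knockout against the WT libraries of its own line. For Cd48 the difference between the 2 effects was -2.26 (SE 0.49), given as a description. Cd48 did not pass (limma adjusted p = 0.0840), while 3 of 25 alternatives called it. As these fits include the values on which Cd48 was selected, nothing is read from them. None of the 8 relatives tested passed either (limma), 0.181% of the 14394 genes tested did, and 2 relatives, Cd2 and Cd84, had an unadjusted p under 0.05, against 6.54% of all genes, with 0 and 2 by voom. Cd84 differed by -1.71 (SE 0.60, from -2.98 to -0.44, limma adjusted p = 0.502) and Cd2 by 1.33 (SE 0.39, adjusted p = 0.279). Of the 8 relatives 7 were below 0 and 1, Cd2, above, with a median of -0.75 against 0.06 over all genes. Slamf1 was at -1.50 (SE 0.87) and Slamf8 at -0.90 (SE 0.52). Slamf9 reached the filter only through Tie2-Ezh2-WT, and Slamf6 and Cd2 only through Tie2-Ezh2-KO libraries, so nothing is read from this tally or median. A direct test of Tie2-Ezh2-KO against Vav-Ezh2-KO called Cd2 (limma adjusted p = 0.0103, in a range of 0.0103 to 0.648 over 24 alternatives), but here too Cd2 passed the filter only through the Tie2-Ezh2-KO libraries.

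Of the 10 genes, 7 lie side by side on chromosome 1 of GRCm38, and the question for this locus was whether the neighbours of Cd48 moved with it. Cd48 spans chr1:171681245-171705258, with Slamf7 and Ly9 as the nearest genes of the table before it and Slamf1 and Cd84 after it. Slamf9 and Slamf8 lie farther along the same chromosome, and Cd2 lies on chromosome 3 (chr3:101275908-101287939). Within 500 kb of Cd48 the table held 34 other genes, 6 of them in the family (Cd244, Ly9, Slamf7, Slamf1, Cd84 and Slamf6). The library method keeps no strand, and the spans of Cd244, Cd84, Slamf6 and Slamf7 overlap annotated noncoding genes. Reads from any shared exons cannot be told apart, and whether exons are shared was not looked at.

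Of these 34 neighbours, 30 were tested in Tie2-Ezh2-KO EMPs and 0 were called (limma), where 2.73% of all genes were, with 1 at an unadjusted p under 0.05, against 10.97%, and, by voom, 0 called and 2 at an unadjusted p under 0.05. Their differences ran from -0.69, that of Cd84, to 0.63, with a median of -0.10. The 5 family members among them had a median of -0.47, with 4 below 0, and the 25 other genes a median of -0.04, with 14 below 0. The family median is the value of Ly9, which reached the filter only through WT libraries, as Slamf6 did only through Tie2-Ezh2-KO libraries. Nothing is therefore read from the gap between these medians. Fcer1g, the most abundant neighbour, differed by -0.28 (SE 0.16, limma adjusted p = 0.640), and without Tie2-Ezh2-KO replicate 9 it passed at -0.46 (adjusted p = 0.0243). With so few genes and so low a share of calls over all genes, a count of 0 says little about the neighbours.

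**Figure D2:**
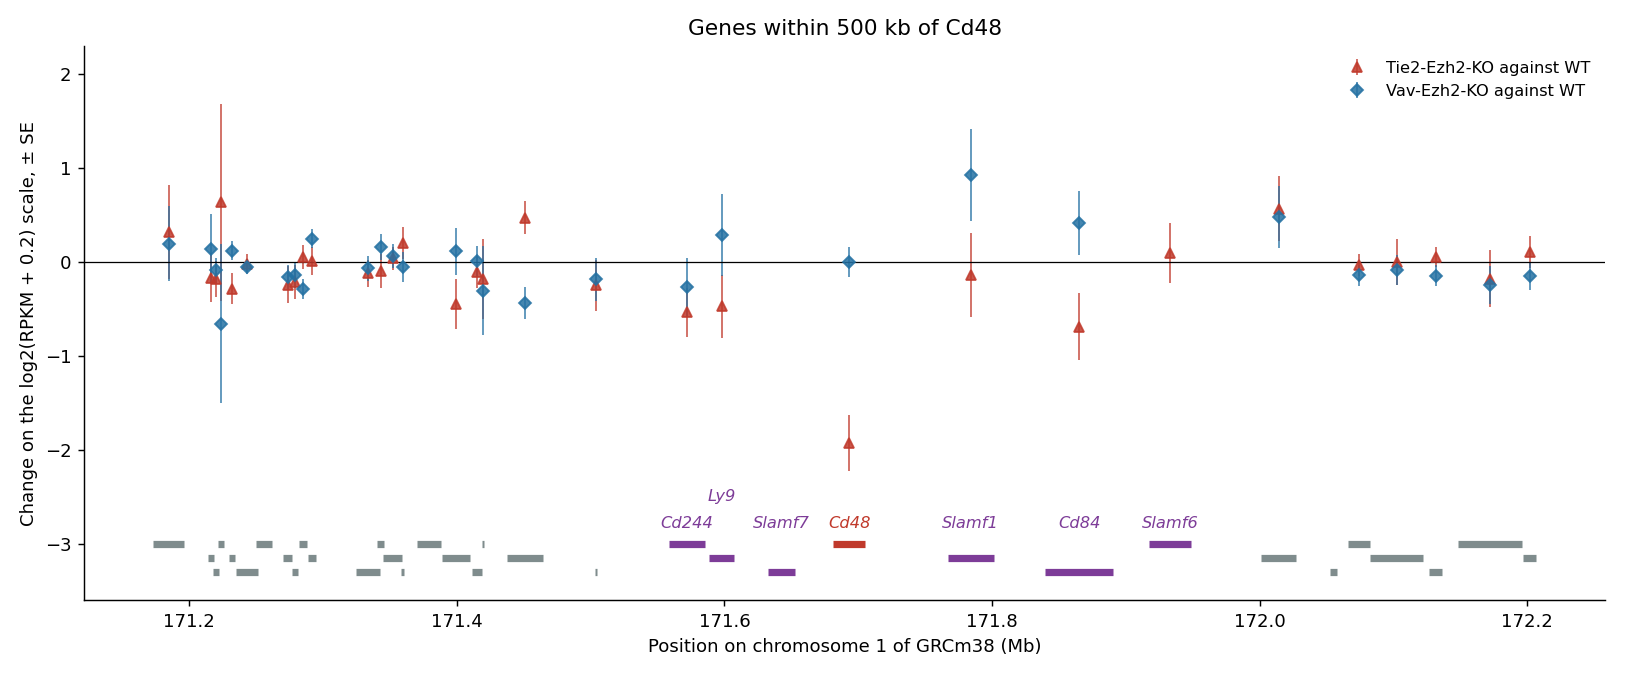
Change in Tie2-Ezh2-KO (triangles) and Vav-Ezh2-KO (diamonds) EMPs against WT on the log2(RPKM + 0.2) scale (vertical axis, bars are the SE of limma) of the genes within 500 kb of Cd48, by position on chromosome 1 in Mb. Bars at the bottom are the genes, with Cd48 in red and its relatives in purple; Cd48 lies at -1.93 in Tie2-Ezh2-KO and -0.00 in Vav-Ezh2-KO EMPs, and its 30 tested neighbours between -0.69 and 0.63 in Tie2-Ezh2-KO EMPs.

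The start regions of the members were looked at for CG pairs, the bases that DNA methylation acts on. RefSeq promoters of 300 bases, each around 1 annotated start, matched 8 of the 10 members, and Ly9 and Cd2 had none. For Cd48, Cd244, Slamf7, Slamf8 and Slamf9 these windows lie inside the gene span, which begins farther upstream, and the window of Slamf9 lies farthest inside. The members held 1 to 7 CG pairs, with 7 in Cd48, 6 in Slamf9 and 2 in Cd244, and the median of 32851 promoters was 7, of which 94.6% held at least 1. The promoters of Cd48 (chr1:171681742-171682041, plus strand) and of Cd244 (chr1:171558943-171559242, plus strand) are shown, as those of the gene that fell and of its most abundant relative, from RefSeq on GRCm38.p6, 5′ to 3′, with CG pairs in capitals.
Cd48: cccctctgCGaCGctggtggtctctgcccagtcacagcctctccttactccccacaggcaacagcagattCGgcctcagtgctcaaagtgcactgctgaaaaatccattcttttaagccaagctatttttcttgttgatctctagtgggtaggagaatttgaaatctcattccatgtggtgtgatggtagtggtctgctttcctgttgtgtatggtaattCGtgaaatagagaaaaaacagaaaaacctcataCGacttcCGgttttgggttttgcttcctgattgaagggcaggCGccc
Cd244: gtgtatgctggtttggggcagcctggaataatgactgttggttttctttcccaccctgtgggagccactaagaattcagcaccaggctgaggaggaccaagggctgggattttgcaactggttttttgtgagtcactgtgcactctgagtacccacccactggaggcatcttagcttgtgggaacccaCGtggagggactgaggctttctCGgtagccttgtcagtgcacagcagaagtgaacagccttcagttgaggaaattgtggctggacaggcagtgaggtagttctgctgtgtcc
This is a description of letters, and the RPKM values used here hold no measure of binding or methylation at these sites. The study also measured histone methylation and chromatin accessibility in EMPs, and those data were not used here.

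The genes whose levels were most like those of Cd48 were taken by Pearson r on log2(RPKM + 0.2), given with no p. Over the 15 libraries, which include the fall that selected Cd48, they were Ifi47 (r = 0.92), Iqcg (r = 0.89), Cpa3 (r = 0.88), Srd5a3 (r = 0.87) and Gm15915 (r = 0.86) among 10139 genes. Over the 10 libraries that are not Tie2-Ezh2-KO they were Sdpr (r = 0.89), 2310001H17Rik (r = 0.89), Tax1bp1 (r = 0.88), Ercc5 (r = 0.88) and Map4k5 (r = 0.86) among 9752 genes. No gene was in both lists, and by Spearman rank 1 of the first 5 and 2 of the second 5 were found again. By Spearman over the 15 libraries the first gene was 2310001H17Rik (0.90), which is in the second list. Cd244 had r = 0.50 and r = 0.48 with Cd48, at rank 834 and 901 (by Spearman 0.64 and 0.48, at rank 176 and 828), and Slamf8 had r = 0.34 and r = -0.21. The other relatives were below 1 RPKM in too many libraries to be ranked.

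Cpa3, a granule protease of mast cells and their precursors, belonged to the marker lists as well. It was at 35.2, 82.8, 85.2, 32.9 and 32.0 RPKM in WT, at 30.1, 35.3, 8.41, 16.7 and 22.5 RPKM in Tie2-Ezh2-KO, and at 80.4, 97.1, 77.9, 32.0 and 48.1 RPKM in Vav-Ezh2-KO libraries. Like Cd48 it was lowest in Tie2-Ezh2-KO replicate 11, and 4 of 5 Tie2-Ezh2-KO values were under the lowest WT value, but replicate 9 lay above it, and its difference of -1.25 (SE 0.37) did not pass (limma, adjusted p = 0.109). Among 5 mast cell or basophil markers, of which Cpa3 was the most abundant, Mcpt8 was at 0 in all libraries. Of the 4 tested 0 were called (limma and voom), where 2.73% of all genes were by limma, with Cpa3 the 1 at an unadjusted p under 0.05, against 10.97%. Ms4a2 (0.999, SE 0.60) and Cma1 (0.79, SE 0.49) had values in the other direction at low levels, neither at an unadjusted p under 0.05. Ms4a2 had a WT mean of 0.403 RPKM against a Tie2-Ezh2-KO mean of 1.06 RPKM, and was at 0 in Tie2-Ezh2-KO replicate 13. Cma1 was at 0 in WT, so it reached the filter only through Tie2-Ezh2-KO libraries, and 24 of its 27 reads there were in replicate 9 and the other 3 in replicate 17. The summed level of the list, nearly all Cpa3, ran from 32.0 to 86.5 RPKM in WT, from 9.25 to 38.2 RPKM in Tie2-Ezh2-KO and from 32.2 to 98.1 RPKM in Vav-Ezh2-KO libraries. The part of such cells in the level of Cd48 was not tested.

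Inside the cell, SLAM receptors act through small adaptors that recruit Src family kinases and keep phosphatases away, and CD2 through proteins that bind its tail. Of the 19 listed genes of this pathway 18 were in the table, without the adaptor Sh2d1a, and all 18 were tested. The other adaptors were low, with Sh2d1b1 at most 1.18 RPKM and Sh2d1b2 at most 0.467 RPKM, and as these genes are near-identical and each read was kept at 1 place, their values may be shared. The most abundant members were the phosphatase Ptpn6 (173.5 ± 23.0 RPKM in WT, SD, n = 5) and the phospholipase Plcg2 (37.9 ± 7.27 RPKM in WT, SD, n = 5), whose differences in Tie2-Ezh2-KO EMPs were -0.07 (SE 0.12) and -0.01 (SE 0.25).

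Of the 18 pathway genes, 2 kinases were called higher in Tie2-Ezh2-KO EMPs, Lck and Fgr, and 0 lower, where 2.42% and 0.304% of all genes were, with a median of -0.04 against 0.01 over all genes. The same 2 were the only ones at an unadjusted p under 0.05, where 10.97% of all genes were, and voom gave the same counts. This list was chosen with earlier results of these data known, so nothing is read from these shares. Lck, a kinase that CD2 and SLAM receptors use in lymphocytes, was at 1.51, 0.798, 1.58, 1.52 and 1.88 RPKM in WT, at 2.62, 4.10, 3.32, 5.66 and 2.65 RPKM in Tie2-Ezh2-KO, and at 1.73, 0.567, 1.99, 2.42 and 2.29 RPKM in Vav-Ezh2-KO libraries. Fgr, a related kinase of myeloid cells, was at 0.403, 0.511, 0.810, 0.382 and 0.870 RPKM in WT, at 3.06, 1.997, 1.23, 1.37 and 2.90 RPKM in Tie2-Ezh2-KO, and at 1.27, 0.520, 0.763, 0.650 and 0.667 RPKM in Vav-Ezh2-KO libraries. For both kinases every Tie2-Ezh2-KO library was above every WT library, and the Vav-Ezh2-KO libraries overlapped WT. Lck rose by 1.21 (SE 0.28, adjusted p = 0.0340) and Fgr by 1.51 (SE 0.32, adjusted p = 0.0195) on the log2 scale with limma. The exact permutation p of 0.00794 for each follows from the full separation of Tie2-Ezh2-KO and WT libraries and adds nothing to it.

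Both calls were close to the threshold. That of Lck held in 10 of 21 alternatives (adjusted p from 0.0258 to 0.0895) and ended without Tie2-Ezh2-WT replicate 4, 10 or 12, Vav-Ezh2-WT replicate 4, or Tie2-Ezh2-KO replicate 9, 11 or 13 (adjusted p of 0.0623, 0.0869, 0.0562, 0.0682, 0.0587, 0.0658 and 0.0871). That of Fgr held in 16 of 21 (adjusted p from 0.00715 to 0.0885) and ended without Tie2-Ezh2-WT replicate 4, Vav-Ezh2-WT replicate 4, or Tie2-Ezh2-KO replicate 7 or 17 (adjusted p of 0.0509, 0.0586, 0.0581 and 0.0581). In Vav-Ezh2-KO EMPs 0 of the 18 pathway genes were called by limma or voom, with 1 at an unadjusted p under 0.05 by each, where 0.00733% and 7.93% of all genes were by limma. The difference between the 2 knockouts did not pass for Lck (1.40, SE 0.58, limma adjusted p = 0.649) or Fgr (1.27, SE 0.55, adjusted p = 0.669). The direct test of Tie2-Ezh2-KO against Vav-Ezh2-KO called Fgr (1.21, adjusted p = 0.0473), the 1 of 25 alternatives that did, and not Lck (1.02, adjusted p = 0.130).

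**Figure D3:**
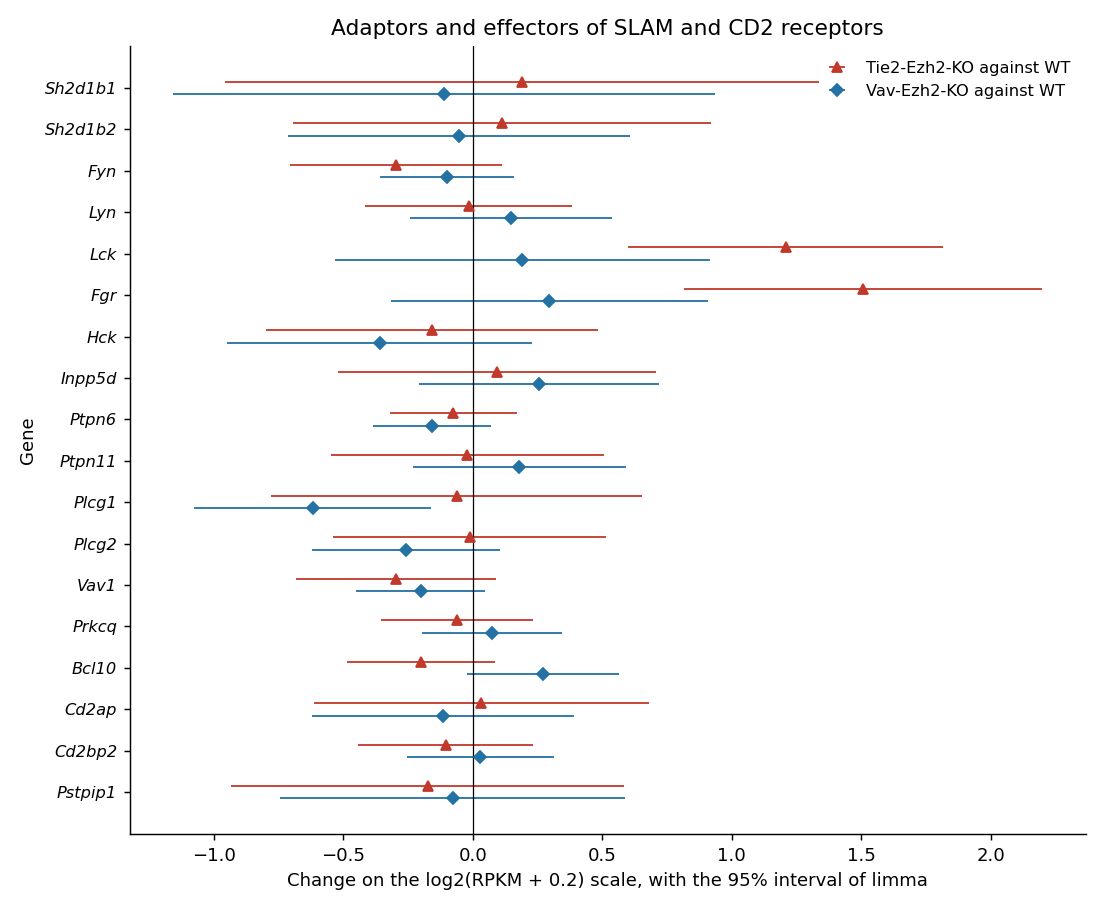
Change on the log2(RPKM + 0.2) scale (horizontal axis) of 18 adaptors, kinases, phosphatases, effectors and CD2 tail binders in Tie2-Ezh2-KO (triangles) and Vav-Ezh2-KO (diamonds) EMPs against WT, with the 95% interval of limma before adjustment. Lck (1.21) and Fgr (1.51) in Tie2-Ezh2-KO EMPs passed the test across all genes, and no other value shown did.

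CD48 reaches the surface on a GPI anchor, and all 8 listed genes of anchor assembly were measured. In Tie2-Ezh2-KO EMPs 0 were called (limma and voom), where 2.73% of all genes were by limma, and 1 was at an unadjusted p under 0.05 by each, against 10.97% by limma. This was Piga, which belongs to the enzyme of the first step of anchor synthesis, at -0.41 (SE 0.16, from -0.76 to -0.07, limma adjusted p = 0.286), below all WT libraries in 4 of 5. In Vav-Ezh2-KO EMPs 0 were called and 0 were at that p, against 0.00733% and 7.93% of all genes. The most abundant, Gpaa1 and Pigs, which belong to the enzyme that attaches the anchor, were at 85.6 ± 12.7 and 64.7 ± 5.66 RPKM in WT (SD, n = 5) and in Tie2-Ezh2-KO EMPs at 83.1 ± 16.8 and 58.5 ± 5.58 RPKM (SD, n = 5). Their differences were -0.05 (from -0.37 to 0.26) and -0.15 (from -0.37 to 0.08).

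As Cd2 and Lck are best known from lymphocytes, the lymphoid markers were read beside them. Of 5 T cell markers 4 were in the table, without Cd3e, and Cd4 was at 0 in all libraries. The T cell markers summed to 0.319, 0.745, 0, 0.201 and 0.0596 RPKM in Tie2-Ezh2-KO, to 0.0467 to 0.280 RPKM in WT and to 0.0746 to 0.835 RPKM in Vav-Ezh2-KO libraries. Cd3g, the most abundant of them, was at 0 in all 5 WT libraries and had 3, 11, 0, 3 and 0 reads in the Tie2-Ezh2-KO libraries, highest in replicate 9 as Cd2 was, and 13 reads in Vav-Ezh2-KO replicate 9. The signal in WT was mostly Cd8a, with a WT mean of 0.108 RPKM against a Tie2-Ezh2-KO mean of 0.0354 RPKM. The part of T cells in the reads of Cd2 and Lck was not tested. Of 4 NK cell markers 2 were in the table, with Klrd1 the most abundant, and they summed to 0.0715 to 0.726 RPKM in Tie2-Ezh2-KO, to 0.231 to 0.677 RPKM in WT and to 0.165 to 1.92 RPKM in Vav-Ezh2-KO libraries. Of 5 B cell markers 3 were in the table, and nearly all of their level was Cd79b, at 22.6 to 38.8 RPKM over all libraries. In each knockout 6 of these markers were tested, Cd3g alone of the T cell markers, 2 of NK cells and 3 of B cells, as Cd3d, Cd4 and Cd8a did not reach the filter. Of these 6, 0 were called in either knockout by limma or voom, where 2.73% of all genes were by limma in Tie2-Ezh2-KO and 0.00733% in Vav-Ezh2-KO EMPs. At an unadjusted p under 0.05 were 1, Cd79b (-0.31, SE 0.13), in Tie2-Ezh2-KO EMPs, against 10.97% of all genes, and 0 in Vav-Ezh2-KO EMPs, against 7.93%.

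Some markers of other blood cells were called in Tie2-Ezh2-KO EMPs, where Cd48 was low. The lists were chosen with earlier results of these data known, so nothing is read from their counts against the shares of all genes. Of 8 granulocyte-monocyte progenitor markers 2 fell, where 0.304% of all genes did, the granule genes Mpo by 0.75 (SE 0.18, limma adjusted p = 0.0414, below all WT libraries in 4 of 5) and Elane by 2.20 (SE 0.49, adjusted p = 0.0261, below all WT libraries in 4 of 5). Their most abundant gene was Mpo, and they summed to 1345 to 2173 RPKM in WT, to 831.9 to 1443 RPKM in Tie2-Ezh2-KO and to 1406 to 2282 RPKM in Vav-Ezh2-KO libraries. Of 3 primitive erythroid globin genes 2 rose, where 2.42% of all genes did, Hba-x by 6.33 (SE 0.62, limma adjusted p = 8.88e-05) and Hbb-bh1 by 1.18 (SE 0.29, adjusted p = 0.0441), above all WT libraries in 5 of 5. Hba-x was at 38.4, 305.4, 338.8, 32.9 and 116.8 RPKM in the Tie2-Ezh2-KO libraries and at most 2.67 RPKM in WT, so that replicate 11, with the lowest Cd48, had the highest Hba-x, while replicate 13, with the next lowest Cd48, had the lowest. The globin genes, of which Hbb-bh1 was the most abundant, summed to 65.2 to 141.7 RPKM in WT, to 192.1 to 854.9 RPKM in Tie2-Ezh2-KO and to 59.9 to 155.1 RPKM in Vav-Ezh2-KO libraries.

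Of these 4 calls, 3 depended on single libraries and on the processing. That of Mpo held in 8 of 21 alternatives (4 of the 11 that did not leave out a single library, adjusted p up to 0.312) and ended without Tie2-Ezh2-WT replicate 10, Vav-Ezh2-WT replicate 4 or 6, or Tie2-Ezh2-KO replicate 7, 9 or 13 (adjusted p from 0.0655 to 0.117). That of Elane held in 13 (8 of those 11, adjusted p up to 0.170) and ended without Tie2-Ezh2-WT replicate 10 or 12, Vav-Ezh2-WT replicate 4, or Tie2-Ezh2-KO replicate 7 or 13 (adjusted p from 0.0506 to 0.0747). That of Hbb-bh1 held in 7 (5 of those 11, adjusted p up to 0.246, and not with voom) and ended without any 1 of the 5 WT libraries or Tie2-Ezh2-KO replicate 7, 9 or 11 (adjusted p from 0.0535 to 0.101), and that of Hba-x ended with voom alone (adjusted p = 0.0835). Of 8 macrophage markers, of which C1qa was at 0 in all libraries, and 8 endothelial markers 0 were called in Tie2-Ezh2-KO EMPs by limma or voom, where 2.73% of all genes were by limma. At an unadjusted p under 0.05 were 2 and 2 by limma, against 10.97% of all genes, and 1 and 2 by voom. By limma these were Emr1 (-1.05, SE 0.41), which encodes F4/80, and Cd68 (-0.46, SE 0.21) of macrophages, and Pecam1 and Esam of endothelium. Pecam1 was at -0.62 (SE 0.20, limma adjusted p = 0.1499), below all WT libraries in 5 of 5, as 0.714% of genes were, and Esam at 0.38 (SE 0.17, adjusted p = 0.414), above them in 4 of 5. The lineage antibodies of the sort included CD3e, B220, F4/80, TER119 and GR1, and these values do not show how far mature cells were removed. The part of these cell types in the levels of Cd48 and Cd2 was not tested.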

How the data were processed

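RNA-seq of sorted EMPs from single E10.5 yolk sacs was used, with 15 libraries in 4 groups named by the labels. The authors aligned 75-base single-end reads to GRCm38 with TopHat2 2.0.13, keeping 1 alignment per read, used featureCounts with the RefSeq annotation, and converted the counts to the deposited RPKM table of 17454 genes. Read totals here, 10407398 to 41025074 per library, were recovered from the steps between low RPKM values, and the 16877 genes with any signal all gave whole numbers within 0.001. At the lowest of these depths 1 read in a transcript of 2 kb is 0.0480 RPKM.

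Values were tested as log2(RPKM + 0.2) with limma 3.58.1 in R 4.3.3 (lmFit, eBayes with trend), over genes above 0.2 RPKM in 1 or more libraries of a fit, with Benjamini-Hochberg adjustment over all genes tested and a threshold of 0.05. Each knockout (n = 5) was compared with the pooled WT libraries (n = 5), and the difference between the knockout effects was fitted over 4 groups. Exact permutation tests used all 252 divisions of 10 libraries. Tables were made with Python 3.11.15, numpy 2.4.6, pandas 2.3.3 and scipy 1.17.1. The tests and the recovery of reads were tested on simulated data. The study held 3 independent experiments that the labels do not assign, so no batch term was used, and the DESeq2 tests of the authors were not repeated.

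The named genes were every family member, and lists for the SLAM pathway, GPI anchor assembly, cell types and the genes within 500 kb of Cd48, with called and most abundant genes named. Fcer1g was singled out as a call that appeared without 1 library, and Piga and Emr1 as genes of their lists at an unadjusted p under 0.05. Members and lists were chosen with earlier results of these data known. Likeness to Cd48 was ranked over genes above 1 RPKM in at least 5 libraries. Alternatives were added constants of 1 and 0.05, no filter or a filter of 1 RPKM in 5 libraries, eBayes without trend, quantile normalization, a common median, array weights, voom on recovered reads, controls of the same line, 1 fit of 3 groups, a direct comparison of the knockouts, rank correlation, and leaving out each library in turn.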

Additional observations from a re-analysis of the deposited data

Results flagged for a closer look

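In 33 groups of 5 libraries (WT and each knockout, for every family member, Lck and Fgr, wherever a group had reads), the highest and lowest values were compared with the rest of their group, and 10 libraries lay far above the others. Chance gives about 1 in 20 groups, a rate that does not apply to the 8 groups here in which the other 4 libraries were at 0. Cd84 was at 1.71 RPKM in Tie2-Ezh2-WT replicate 4 (111 reads), where the other WT libraries were at most at 0.839 RPKM. Slamf1 was at 2.93 RPKM in Vav-Ezh2-KO replicate 9 (145 reads), where the others were at most at 0.622 RPKM. The other 8 were single libraries with reads in a group otherwise at 0. These were Ly9 in Tie2-Ezh2-KO replicate 11 (0.0551 RPKM, 2 reads), Slamf6 in Tie2-Ezh2-WT replicate 12 (0.160 RPKM, 16 reads), Tie2-Ezh2-KO replicate 11 (0.304 RPKM, 11 reads) and Vav-Ezh2-KO replicate 9 (0.0444 RPKM, 2 reads), Slamf7 in Tie2-Ezh2-KO replicate 13 (0.0375 RPKM, 4 reads) and Vav-Ezh2-KO replicate 26 (0.0219 RPKM, 1 read), and Slamf9 in Tie2-Ezh2-KO replicate 9 (0.0571 RPKM, 1 read) and Vav-Ezh2-KO replicate 1 (0.186 RPKM, 6 reads).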

How the results depend on the processing

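No relative of Cd48 was called lower in Tie2-Ezh2-KO EMPs under any of 21 alternatives, and no family member in Vav-Ezh2-KO EMPs (limma or voom). The number of relatives called higher went from 1, Cd2, to 0 with the filter of 1 RPKM, which left Cd2 untested, with quantile normalization, and with WT of the same line, which has fewer libraries. In the difference between the knockouts it went from 0 to 1, again Cd2, in the direct comparison, which also called Fgr. The SLAM pathway count of 2 became 1 (Fgr) with no filter, with quantile normalization and in 1 fit of 3 groups, 0 with WT of the same line, and 0 to 2 over single libraries left out. The locus count of 0 ranged from 0 to 1 over single libraries left out (Fcer1g, without Tie2-Ezh2-KO replicate 9).

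Signs turned for differences that no test called. In Tie2-Ezh2-KO EMPs Slamf1 (-0.14) was 0.086 with array weights and -0.38 to 0.18 over single libraries left out, and Slamf6 (0.10) was -0.30 with voom and -0.016 with WT of the same line. In Vav-Ezh2-KO EMPs Cd48 (-0.00) was 0.038 with quantile normalization, 0.040 with a common median, 0.035 with array weights, 0.20 with WT of the same line and -0.094 to 0.10 over single libraries left out. Over single libraries left out, Cd244 ranged from -0.44 to 0.013, Ly9 from -0.031 to 0.56 and Slamf8 from -0.14 to 0.23 in Vav-Ezh2-KO EMPs. In the difference between the knockouts Slamf6 (-0.07) was 0.21 in the direct comparison and -0.21 to 0.21 over single libraries left out. Where the alternative does not itself remove libraries or genes, the cause was not tested.

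Of 471 fits of a relative under an alternative, 153, 115 and 188 kept direction and side of the threshold in the Tie2-Ezh2-KO, Vav-Ezh2-KO and difference tests. The fall of Cd48 in Tie2-Ezh2-KO EMPs, a description, ranged from -2.09 to -1.60 over single libraries left out. By rank correlation 1 of 5 and 2 of 5 of the genes most like Cd48 were found again. No paired analysis was possible because the groups compared share fewer than 2 numbers. Depth limits Slamf6, Slamf7, Slamf9, Ly9 and Cd2, which had at most 47 reads in any library.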
